A study of Mus musculus with 2 samples.

Results

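Distal DNase-seq peaks inside first introns were described in thymus from B6CASTF1/J mice, the F1 hybrids of C57BL/6J and CAST/EiJ, of which 2 females were sampled at 14 days of age. DNase-seq cuts nuclei with DNase I and sequences the cut ends, so that open chromatin yields many cuts and is called as peaks, and bases shielded inside a peak are called as footprints. The 2 mice are the biological replicates 1 and 2 of 1 untreated group, and the series holds no other group. Whole tissue was used, in which thymocytes, the developing T cells, outnumber epithelial, stromal and myeloid cells. A member was a peak of replicate 1 on chromosomes 1 to 19 that shared at least 1 bp with a replicate 2 peak. Its midpoint lay over 500 bp from every protein-coding transcription start site (TSS), outside all protein-coding exons and inside intron 1 of the longest protein-coding transcript of a gene (GENCODE M21 basic annotation, mm10). There were 9358 members among 51814 shared distal autosomal peaks outside exons, or 18.1% (95% Wilson interval 17.7 to 18.4%). Later introns held 15254 of these peaks, the space between genes 24866 and other parts of gene bodies 2336. Replicate 1 had 97051 peaks in all and replicate 2 had 108010, of which 71238 autosomal replicate 1 peaks were shared. Of the members, 1320 did not pair 1 to 1 with a replicate 2 peak, since a wide peak of one animal could meet several of the other. Members that overlapped another member numbered 183, and each was counted.

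The first intron follows the first exon and so starts close to the promoter. It is on average the longest intron of mammalian genes, and it is known for carrying enhancers and silencers that act on the same gene. In T cells such elements are bound by factors of the RUNX, ETS, TCF/LEF, E protein and Ikaros families, while CTCF anchors chromatin loops. Intron 1 of mouse Cd4 is the textbook case, because a silencer there keeps the gene off in CD8 T cells.

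The promoters of thymocyte genes were checked against the tissue label. All 49 autosomal genes of a list of thymocyte and T cell genes had an open promoter, meaning a peak within 500 bp of a TSS in both replicates, and none of 16 hepatocyte genes did, which allows a share of up to 18.75%. Open promoters were also found for 8 of 19 thymic epithelial, 5 of 18 myeloid and dendritic and 4 of 15 endothelial and mesenchymal genes, and for 8 of 13 neuron, 5 of 15 B cell and 3 of 13 striated muscle genes on autosomes. In whole tissue, fewer cells with an open site and weaker opening in each cell cannot be told apart. No read depth can be taken from the deposited files, and intervals of shares and densities cover counting error only. With 2 animals of 1 group, the smallest two-sided p of an exact sign test is 0.5, so no test across animals was made.

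The sequences of 8 members in thymocyte genes are shown first, because they carry what is described below: footprints with and without a known motif, and sites that differ in strength between the animals. Sequences are from the GRCm38.p6 assembly (mm10), plus strand, 5′ to 3′, and capitals mark bases inside footprints of both replicates. Bcl11b (a factor of T lineage commitment), Bcl6 (a repressor), Ets1 (an ETS factor), Cd4 (the coreceptor), Notch1 and Notch3 (receptors of the Notch pathway), Cd247 (the zeta chain of the T cell receptor complex) and Runx3 (a factor of CD8 T cells) are the host genes.
Bcl11b, chr12:107998841-107999000: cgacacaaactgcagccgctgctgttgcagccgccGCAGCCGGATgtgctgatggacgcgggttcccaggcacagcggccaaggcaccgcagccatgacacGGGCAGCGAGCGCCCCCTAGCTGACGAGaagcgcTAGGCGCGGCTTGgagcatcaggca
Bcl6, chr16:23984321-23984500: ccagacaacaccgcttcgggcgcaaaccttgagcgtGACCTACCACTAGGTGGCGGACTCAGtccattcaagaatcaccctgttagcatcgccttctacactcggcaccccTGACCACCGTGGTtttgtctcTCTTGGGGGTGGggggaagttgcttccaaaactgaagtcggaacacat
Ets1, chr9:32706161-32706440: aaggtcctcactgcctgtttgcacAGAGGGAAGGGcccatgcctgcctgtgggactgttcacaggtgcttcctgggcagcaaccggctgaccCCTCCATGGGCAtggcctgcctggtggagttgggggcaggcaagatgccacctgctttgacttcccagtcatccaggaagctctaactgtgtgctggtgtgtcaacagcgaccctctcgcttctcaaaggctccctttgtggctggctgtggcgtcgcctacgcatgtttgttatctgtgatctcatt
Cd4, chr6:124885261-124885460: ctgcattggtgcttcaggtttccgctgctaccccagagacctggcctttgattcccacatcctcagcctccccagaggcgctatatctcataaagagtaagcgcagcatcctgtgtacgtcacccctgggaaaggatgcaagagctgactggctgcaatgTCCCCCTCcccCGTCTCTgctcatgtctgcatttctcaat
Notch1, chr2:26503061-26503340: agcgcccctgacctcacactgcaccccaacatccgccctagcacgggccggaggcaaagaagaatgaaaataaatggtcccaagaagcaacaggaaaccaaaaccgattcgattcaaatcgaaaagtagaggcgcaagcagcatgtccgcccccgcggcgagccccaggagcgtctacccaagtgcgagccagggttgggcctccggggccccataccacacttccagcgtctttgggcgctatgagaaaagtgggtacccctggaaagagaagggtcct
Notch3, chr17:32164301-32164560: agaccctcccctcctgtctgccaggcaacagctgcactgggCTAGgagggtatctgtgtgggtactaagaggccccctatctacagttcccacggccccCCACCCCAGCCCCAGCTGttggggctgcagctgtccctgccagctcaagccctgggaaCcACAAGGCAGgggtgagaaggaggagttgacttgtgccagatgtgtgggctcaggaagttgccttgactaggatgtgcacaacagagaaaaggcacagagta
Cd247, chr1:165853801-165853980: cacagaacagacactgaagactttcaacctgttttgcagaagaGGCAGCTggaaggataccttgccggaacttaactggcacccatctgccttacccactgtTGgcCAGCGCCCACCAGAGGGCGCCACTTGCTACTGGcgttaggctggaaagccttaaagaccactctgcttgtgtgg
Runx3, chr4:135150521-135150740: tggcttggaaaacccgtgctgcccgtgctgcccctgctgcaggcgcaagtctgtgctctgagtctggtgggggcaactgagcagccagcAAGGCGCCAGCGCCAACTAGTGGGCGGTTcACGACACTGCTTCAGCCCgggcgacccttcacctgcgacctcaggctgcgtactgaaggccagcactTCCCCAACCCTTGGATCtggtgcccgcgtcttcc
The Bcl6 and Cd247 elements each held a CTCF consensus match inside a footprint of both replicates. In the Notch3 element a CAGCTG E-box lay in such footprints, and a RUNX word (TGTGGTT, on the minus strand) was partly covered by them. The Notch1 element, 622 bp from the gene's TSS, had no footprint in either replicate. The share of bases inside footprints of both replicates ran from 0% in Notch1 and 7.50% in Cd4 to 29.1% in Runx3 and 31.9% in Bcl11b. Over the bases of all members it was 5.89%, with 13.9% in footprints of replicate 1 and 11.6% in those of replicate 2.

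First introns were more densely occupied by distal peaks than later introns. They held 43.8 shared peaks per Mb of eligible sequence, against 24.9 per Mb in later introns and 17.8 per Mb between genes. The ratio to later introns was 1.76 (95% counting interval 1.72 to 1.81). Much of this went with closeness to gene starts. With distance to the nearest protein-coding TSS held equal in 8 bins, the ratio was 1.22 (1.19 to 1.25) to later introns and 1.21 (1.18 to 1.23) to the space between genes, and for peaks over 2000 bp from a TSS it was 1.04.

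**Figure D1:**
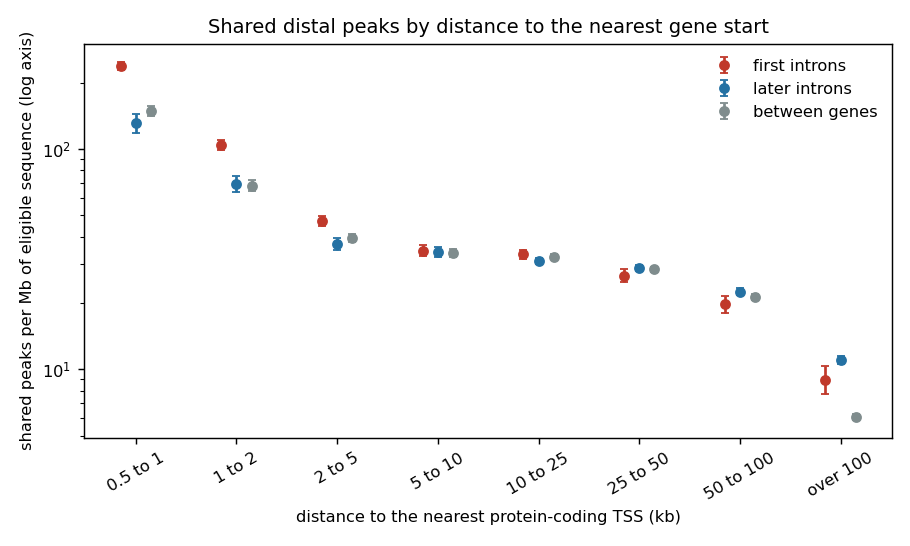
Shared distal peaks per Mb of eligible sequence (log axis) against distance to the nearest protein-coding TSS in kb, for first introns, later introns and the space between genes. Bars are exact 95% counting intervals. First introns were at 238 per Mb at 0.5 to 1 kb, against 131 in later introns, and at 8.97 per Mb beyond 100 kb, against 11.0.

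The plot of density by distance shows that the surplus over later introns lay within 5 kb of a TSS, apart from a small one at 10 to 25 kb. At 0.5 to 1 kb from a TSS, first introns held 238 peaks per Mb, against 131 in later introns and 149 between genes. At 1 to 2 kb the densities were 104, 69.3 and 68.1 per Mb, and at 2 to 5 kb they were 47.02, 37.1 and 39.5 per Mb, in the same order. At 5 to 10 and 10 to 25 kb the classes were close together, with ratios of 1.02 and 1.07 to later introns and of 1.03 and 1.02 to the space between genes. Beyond 25 kb first introns were below later introns, with ratios of 0.922 at 25 to 50 kb, 0.876 at 50 to 100 kb and 0.814 beyond 100 kb. Against the space between genes the ratios there were 0.937 (0.872 to 1.01), 0.930 (0.846 to 1.02) and 1.48 (1.28 to 1.71), so that beyond 100 kb first introns held more peaks, at 8.97 against 6.07 per Mb.

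Members were spread over the whole intron but crowded at its start. Their median distance from the TSS of the host gene was 4998 bp, with quartiles of 1230 and 22309 bp. Of all members 50.01% lay within 5 kb of that TSS and 11.9% lay over 50 kb away. Over 100 kb from the host TSS lay 487 members, while 192 lay over 100 kb from every protein-coding TSS. The far ones include members of the gene model Gm20388, up to 4279709 bp from its TSS. With the intron cut into 10 equal parts, 2176 members fell in the part next to the host TSS, 1104 in the one after it and 700 to 878 in each of the others. Of the members, 172 lay in intron 1 of more than 1 gene and were assigned to the nearest TSS.

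Sequence composition changed along the intron. CpG-rich members, with a CpG ratio over 0.6 and a GC content over 50%, numbered 1349, or 14.4% (13.7 to 15.1%), against 3.91% in later introns and 8.96% between genes. They made up 44.5% of the 1779 members at 0.5 to 1 kb from the host TSS, 19.6% at 1 to 2 kb, 7.63% at 2 to 5 kb and between 2.23 and 4.06% in each bin beyond. Median GC content was 59.0% at 0.5 to 1 kb and 52.0 to 54.0% farther out. At 0.5 to 1 kb, 18.4% of members began within 200 bp of a replicate 1 peak at a promoter, against 3.22% at 1 to 2 kb and 0.232% beyond 2 kb. Whether such neighbours are shoulders of a promoter peak was not tested. Without CpG-rich peaks the density ratio at equal distance was 1.14. Only 3.29% of members lay within 500 bp of the TSS of another kind of gene, such as a long noncoding RNA, against 2.13% in later introns and 6.12% between genes.

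The deposited strength, the authors' peak signal on a scale of each sample's own, differed little between the classes. The medians in replicate 1 were 0.940 for members, 0.893 for later introns and 0.904 between genes. In replicate 2 they were 0.852, 0.898 and 0.927 in the same order. The difference of log2 medians between first and later introns was 0.07 in replicate 1 and -0.08 in replicate 2, so the animals differed in its direction. Member strengths ran from 0.145 to 30.8 in replicate 1 and from 0.109 to 33.6 in replicate 2. Among members, 64.2% (63.2 to 65.2%) overlapped peaks of the authors' stricter lists in both replicates, against 65.7% in later introns and 67.4% between genes.

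Members were wider and carried fewer footprints than the other distal peaks. Median width was 200 bp in first introns, 182 bp in later introns and 185 bp between genes in replicate 1, and 243, 200 and 200 bp in replicate 2. Members held 2.34 footprints on average in replicate 1, against 2.48 in later introns. In replicate 2, where footprints were counted in the replicate 2 peak that each member met, the means were 2.74 and 2.997. The ratio of first to later introns was 0.945 in replicate 1 and 0.913 in replicate 2, a mean of 0.929 ± 0.022 (SD, n = 2), and beyond 2000 bp from a TSS it was 0.997. No footprint was found in 14.0% of members against 7.87% of later-intron peaks in replicate 1, and in 19.3% against 9.51% in replicate 2. Strong members held the most footprints per peak. These counts are not per base, and in the motif counts below the strongest 25% of members averaged 223 bp and the weakest 25% 168 bp. Whether width or signal goes with the difference was not tested. The strongest 25% of members in replicate 1 held 3.53 footprints on average and the weakest 25% held 1.39, and in replicate 2 these groups held 4.48 and 1.40.

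The members richest in footprints over both replicates were wide and GC-rich. The member in Tmem131l (chr3:84039141-84039880, 740 bp, GC content 68.2%) held 5 footprints in replicate 1, and the replicate 2 peak that it met held 25. Overlapping members in Galnt7, which encodes a glycosyltransferase, had 7 and 4 footprints in replicate 1 and met the same replicate 2 peak, with 22. The member in Atxn1, the ataxin-1 gene, had 9 in replicate 1 and met a replicate 2 peak with 17. For that in Slc6a9, a glycine transporter gene, the counts were 9 and 16. All of these lay within 1.5 kb of the host TSS.

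The 9358 members had 4336 host genes, 25.3% of the 17108 protein-coding genes with eligible sequence in intron 1. Of the hosts, 2537 had 1 member, 406 had 5 or more and 70 had 10 or more. The 406 hosts held 34.7% of all members. Genes with an open promoter hosted members far more often than the others. A member was present in 36.1% (35.2 to 37.0%) of 10613 genes with an open promoter and in 7.82% (7.19 to 8.50%) of 6495 genes without one. This held in each class of intron length. Where eligible sequence was under 2 kb, 16.4% of genes with an open promoter and 1.64% of the others had a member. At 2 to 10 kb the shares were 32.1% and 7.71%, at 10 to 50 kb 59.2% and 22.0%, and over 50 kb 73.0% and 30.5%. Over all lengths, genes with an open promoter held 57.3 members per Mb of intron 1 and the others 11.5.

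Of the 12 gene lists, thymocyte and T cell genes had the largest share of genes with a member. A member was found in 32 of 43 thymocyte and T cell genes with eligible sequence, or 74.4% (59.8 to 85.1%), against 25.3% of all protein-coding genes. They held 118 members, 192 per Mb of intron 1, against 42.5 per Mb over all genes. Among genes with an open promoter and at least 2 kb of eligible intron 1, the share was 27 of 32 for the list, or 84.4% (68.2 to 93.1%), and 45.9% of 7089 over all genes. The other lists had at most 4 such genes each, and both such genes of the thymic epithelial list and both of the cell cycle list held a member. The list was chosen with earlier results of these data known, so the counts describe these 2 libraries.

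**Figure D2:**
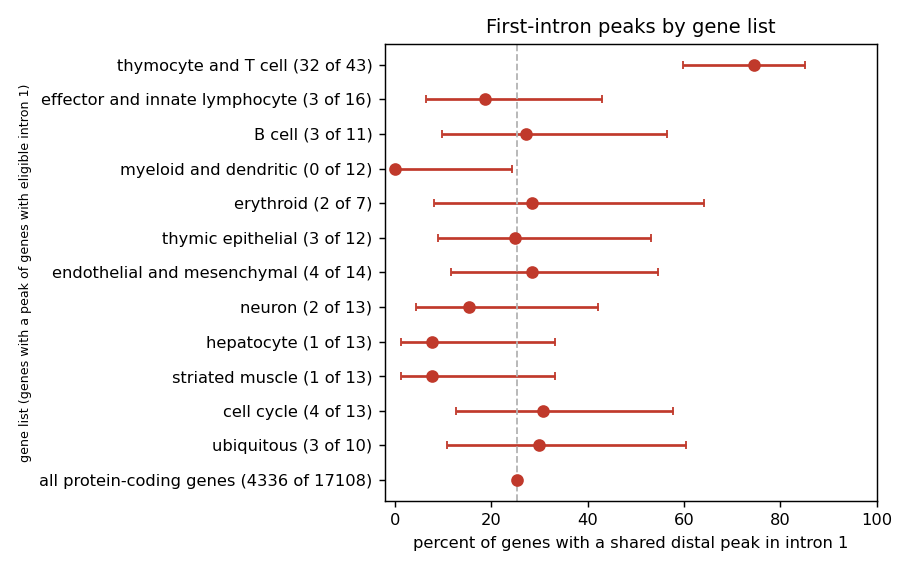
Percent of genes with at least 1 shared distal peak in intron 1, for 12 gene lists and for all protein-coding genes with eligible intron 1 sequence. Bars are 95% Wilson intervals and the dashed line is the value of all genes. Thymocyte and T cell genes were at 74.4%, against 25.3% of all genes, and the other lists between 0% and 30.8%.

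The other 11 lists lay between 0 of 12 genes, for myeloid and dendritic cells, and 4 of 13, for the cell cycle. A count of 0 of 12 allows a share of up to 25%. Cell cycle and ubiquitous genes have short first introns, and their 6 and 4 members came to 341 and 252 per Mb, above the thymocyte list. They include Actb (beta-actin), whose member 794 bp from the TSS reached 27.98 in replicate 1 and 12.1 in replicate 2. Pcna, the sliding clamp of replication, had 9.67 and 5.03, and Mcm7, a subunit of the replicative helicase, had 8.23 and 5.05. Effector and innate lymphocyte genes had members in 3 of 16 genes. These were Il2ra (the interleukin-2 receptor alpha chain) with 7 members, and Ctla4 and Icos, inhibitory and costimulatory receptors, with 1 each. The strongest Il2ra member had 8.27 in replicate 1 and 5.12 in replicate 2, and the Ctla4 member 6.18 and 1.66. Pax5, a B cell factor, had 1 member with 4.46 and 3.54, and Hnf4a, a liver factor, had 1 with 0.410 and 0.351.

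Among thymocyte genes, Bcl11b, Notch3 and Bcl6 were among the hosts of the strongest elements, and several of the hosts were transcription factors. The Bcl11b member at chr12:107998841-107999000, 4682 bp from the TSS, reached 5.54 in replicate 1 and 7.41 in replicate 2, and ranked first by the mean percentile within the replicates. It was 1 of 5 Bcl11b members, whose strengths ran from 0.841 to 5.54 in replicate 1 and from 0.645 to 7.41 in replicate 2. Bcl6 had 8 members within 6372 bp of its TSS, and the strongest, shown above, had 3.93 and 4.77. The strongest of 2 Runx3 members lay 29978 bp from the TSS and had 3.32 and 5.44. Ets1 had 9 members between 3768 and 22365 bp from the TSS, the strongest with 5.58 and 2.94. Lef1, a partner of beta-catenin, had 1 member, with 5.06 and 2.21. Myb, a factor of progenitor cells, had 6 members within 2645 bp of the TSS, and the strongest had 3.82 and 2.38. As deposited, the Bcl11b, Bcl6 and Runx3 elements were higher in replicate 2 and those of Ets1, Lef1 and Myb in replicate 1.

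**Figure D3:**
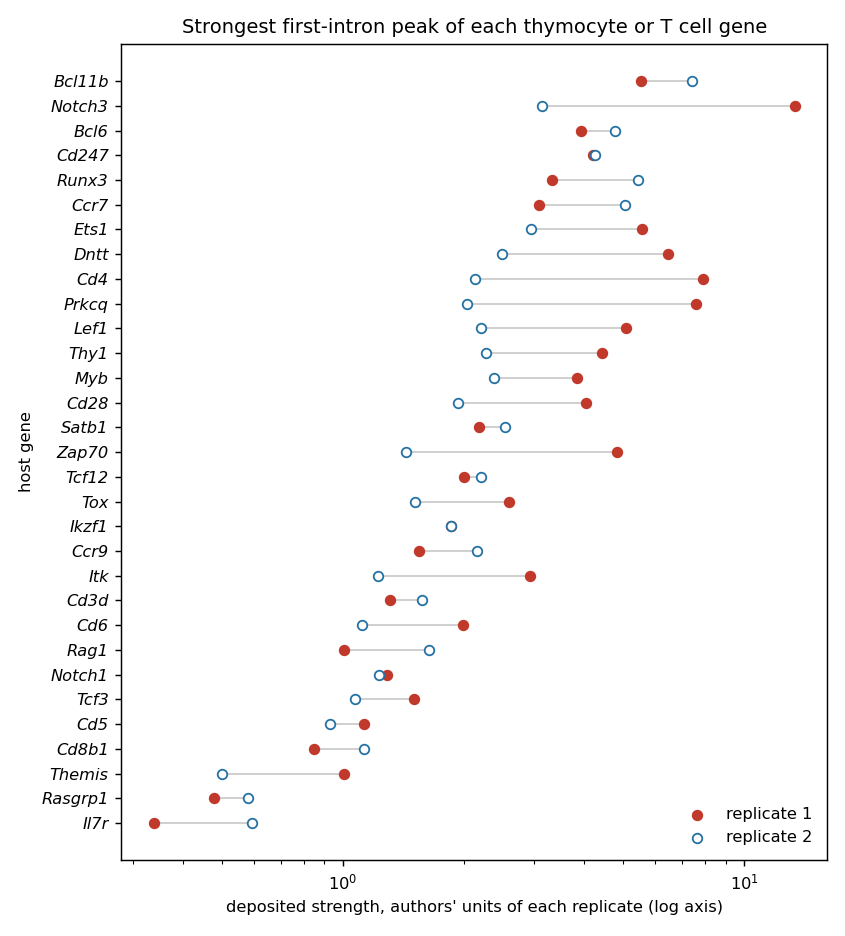
Deposited strength (log axis, authors' units of each replicate) of the strongest first-intron member of each of 31 thymocyte or T cell genes, by the mean percentile within the replicates. Filled points are replicate 1 and open points replicate 2. Notch3 was at 13.4 in replicate 1 and 3.13 in replicate 2, and Il7r had the lowest replicate 1 value, with 0.338 against 0.593 in replicate 2.

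Factors with weaker elements included Satb1, a chromatin organiser, whose strongest of 4 members had 2.19 in replicate 1 and 2.53 in replicate 2. This member held no footprint in replicate 1, and the replicate 2 peak that it met held 7. For the strongest of 4 Ikzf1 (Ikaros) members the strength was 1.86 in replicate 1. The replicate 2 peak that it met, also with 1.86 on that sample's own scale, was met by other Ikzf1 members too. Notch1 had 2 members, 622 and 1384 bp from its TSS, with 1.29 and 1.23 for the nearer and 1.78 and 0.962 for the farther. Notch3 had 3 members, and the strongest, at 2422 bp, had 13.4 and 3.13, the highest replicate 1 value of the list. Tox, a factor of CD4 lineage development, had 9 members in an intron of 147963 bp, up to 94680 bp from the TSS, with strengths from 0.410 to 2.60 in replicate 1 and from 0.317 to 1.51 in replicate 2.

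Among genes of the T cell receptor complex and its signalling, the number of members differed widely. Cd3g had none in 4660 eligible bp, while Lck and Lat, also without one, had only 164 and 64 eligible bp. Cd247 had 16 members along 66279 bp of intron. Its highest member in replicate 1 lay 13459 bp from the TSS, with 8.85, against 2.51 for a replicate 2 peak that a neighbouring member also met. Its member with the CTCF match lay near the end of the intron, 65209 bp from the TSS, and had 4.21 and 4.24. Prkcq, the kinase PKC-theta, had 9 members, the strongest with 7.58 and 2.04. Zap70, the kinase bound to the zeta chain, had 4 members between 4792 and 6007 bp from the TSS, the strongest with 4.82 and 1.44. Cd28, the costimulatory receptor, had 2, the stronger with 4.04 and 1.94. Cd3d had 1 member with 1.31 and 1.57. Themis, needed for thymocyte selection, had 1 member in 53724 bp of intron, with 1.01 and 0.501. As deposited, replicate 1 was the higher at Prkcq, Zap70, Cd28 and Themis, and replicate 2 at Cd3d.

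The coreceptor genes differed from each other, and Cd8a, with only 449 eligible bp in intron 1, had no member. Cd4 had 2 members, at 2041 and 2861 bp from the TSS of its longest transcript. The farther one, chr6:124885261-124885460, had 7.87 in replicate 1 and 2.14 in replicate 2, and the nearer one, chr6:124885981-124886380, had 2.43 and 1.25 and held a RUNX word. Whether either is the known silencer was not tested. Cd8b1 had 5 members between 1039 and 2258 bp from the TSS, the farthest overlapping each other, with 0.597 to 0.847 in replicate 1. All of them met the same wide replicate 2 peak, with 1.13 and 12 footprints. Of the recombination genes, Dntt (terminal transferase) had 3 members, the strongest with 6.45 and 2.50, and Rag1 had 3 members, with 0.982 to 1.07 in replicate 1 and 0.939 to 1.64 in replicate 2. Ccr7, a chemokine receptor of mature thymocytes, had 1 member, with 3.08 and 5.05.

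No member was found in 11 of the 43 genes with eligible sequence. Among them were Nfatc1 with 12608 eligible bp, Cd3g with 4660 bp, Ptcra (the pre-T cell receptor alpha chain) with 4347 bp, Cd69 with 3408 bp and Rag2 with 2890 bp. Zbtb7b had only 826 eligible bp, Cd7 567 bp, Cd8a 449 bp, Lck 164 bp, Gata3 115 bp and Lat 64 bp. Tcf7, Runx1, Cd3e, Cd2, Cd27 and Ptprc had none in intron 1 of the longest transcript, and Sh2d1a lies on the X chromosome. Taking the transcript of the longest genomic span moved 4 genes of the list: Lck had 1 member in place of 0, Rag2 1 in place of 0, Zbtb7b 2 in place of 0 and Ccr9 11 in place of 3.

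The hosts with most members were mostly genes with long introns. Gm20388, a gene model whose intron 1 spans 4384418 bp, held 245 members, but only 5.99 per 100 kb. Peaks there count as first-intron peaks even where they lie in a later intron of another gene. Rora, a nuclear receptor gene, held 27 members in 542102 bp. Ccnd3 (cyclin D3, needed for thymocyte expansion) and Gse1 held 26 each in 73442 and 64432 bp, or 35.6 and 41.6 per 100 kb. The strongest Ccnd3 member had 11.5 in replicate 1 and 15.1 in replicate 2, and the highest value in replicate 1 was 23.5. Cerk (ceramide kinase) held 20 members in 19571 bp, 102 per 100 kb, and Maml3 (a coactivator of Notch) 20 in 246602 bp. Fli1 (an ETS factor), Hivep3 (a zinc finger protein) and Ext1 (an enzyme of heparan sulfate synthesis) held 19 each, and Cd247 16. Among hosts with at least 5 members and 5 kb of eligible intron, a selection made after the values were seen, E2f2 was densest, with 8 members in 5397 bp, or 148 per 100 kb. Ldb1, an adaptor of LIM-domain factors, had 116 per 100 kb, and Kif21b, a kinesin, had 102.

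The 10 strongest members were taken by mean percentile within the replicates, 1 per host gene, with at most 50% of bases marked as repeats. None of them lay in a gene of the thymocyte list, which held 118 of all 9358 members. The member in Chd8, a chromatin remodeller gene, at chr14:52244481-52244660, 13210 bp downstream of the gene start, had 28.3 in replicate 1 and 12.4 in replicate 2. The Actb member followed with the values given above, and that in Gtf2ird2 had 23.4 and 11.9. Those in Gm20388, 1674749 bp from its TSS, and in Gm42906 had 25.2 and 10.9, and 29.6 and 9.24. Foxn3 (a forkhead factor), Zbtb7a (a repressor), Cic (capicua, a repressor), Srebf1 (a factor of lipid synthesis) and Sap130 (a subunit of a deacetylase complex) completed the top 10, with 18.8 to 30.8 in replicate 1 and 7.58 to 12.1 in replicate 2. GC content in these 10 was 57.1 to 70.8%, and none held a CTCF match, where 3.78% of all members did. The highest value of any member in replicate 2 was 33.6, in Il31ra (a cytokine receptor gene) at chr13:112578161-112578320, where replicate 1 had 9.73.

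Occurrences of 16 known words were counted on both strands in members, later-intron peaks and windows of the same width 2 kb from each member outside peaks. CTCF, MEF2 and HNF1 were searched by longer consensus motifs. None of the words spelled out below contains another on either strand, though a CTCF match can hold a CAGGTG E-box. The MEF2 pattern was loose in its middle bases, so a match need not be a MEF2 site. In the Bcl6 element it matched CTACCACTAG, which overlaps the CTCF match there. The CTCF consensus occurred in 354 members, 3.78% (3.42 to 4.19%), against 10.2% of later-intron peaks, 9.99% of peaks between genes and 0.0388% of windows. Its share was lower than in later introns at either distance from a TSS. Within 5 kb it was 2.61% in first introns and 7.55% in later introns, and beyond 5 kb it was 5.19% and 10.6%. It was in 6.33% of the strongest 25% of members and in 1.84% of the weakest 25%.

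ETS words (CCGGAAGT or CAGGAAGT) occurred in 7.74% of members, 7.998% of later-intron peaks and 1.59% of windows, 4.88 (4.22 to 5.64) times as often in members as in windows. RUNX words (TGTGGTT) occurred in 8.30%, 9.47% and 5.23%, and the ratio to windows was 1.59 (1.44 to 1.75). The E-boxes bound by E proteins were about as frequent as in later introns, with CAGCTG in 21.1% of members against 21.01% and CAGGTG in 28% against 29.5%, and windows held them in 9.22% and 15.1%. The TCF/LEF word (CTTTGAT) was near its window level, with 3.20% of members against 3.07%. Other words were rarer in members than in windows. The GATA word (AGATAA) occurred in 6.24% of members against 10.6% of windows. For NFAT (TGGAAAA) the shares were 2.79% and 5.48%. For Ikaros (TGGGAA) they were 15.6% and 18.98%. Median GC content of members was 53.3%. The SP/KLF word (GGGGCGGGG), usual in promoters, occurred in 3.77% of members against 2.15% of later-intron peaks and 0.680% of windows, and in 5.34% of members within 5 kb of the host TSS against 2.20% farther away. The HNF1 motif of liver and gut factors was found in 0 members, which allows a share of up to 0.0321%. Words of AP-1 (TGANTCA), NFY (CCAATCA) and CRE (TGACGTCA) occurred in 6.44%, 2.54% and 0.609% of members and in 5.92%, 2.04% and 0.123% of windows. Matches to the loose MEF2 pattern were in 2.61% of members and 3.28% of windows. NRF1 words (GCGCATGCG) were in 0.224% of members and in none of 15448 windows, which allows up to 0.0194%.

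**Figure D4:**
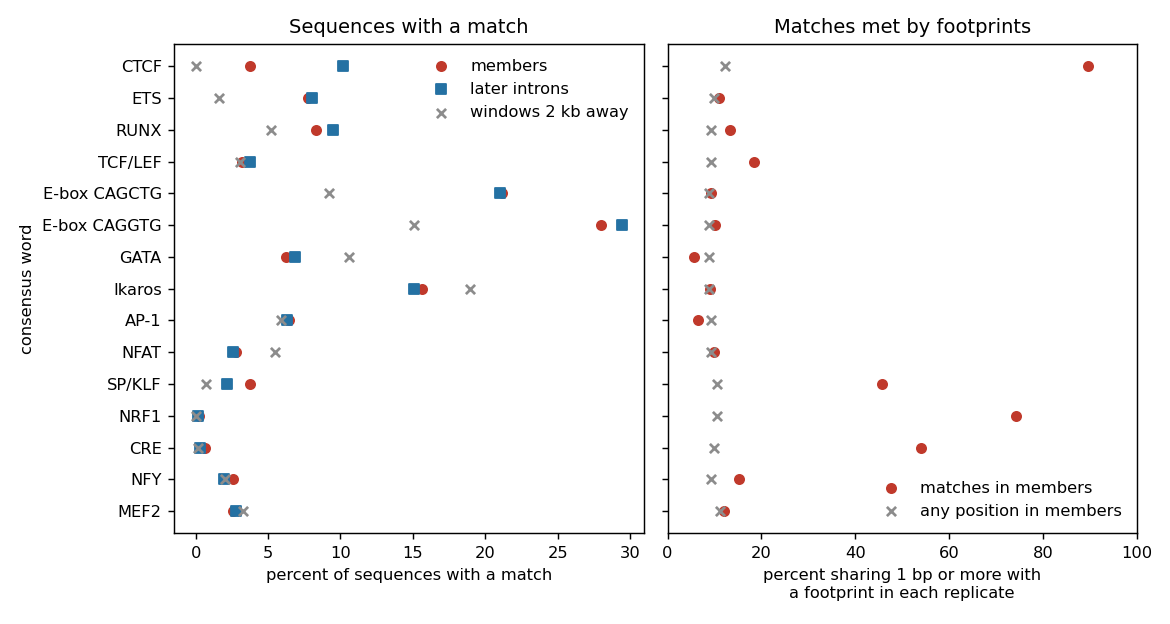
Left, percent of members, later-intron peaks and windows 2 kb away that hold a match to each of 15 consensus words found in members. Right, percent of matches in members that share at least 1 bp with a footprint in each replicate, beside the same percent over any position of the same length. CTCF was at 3.78% of members and 10.2% of later-intron peaks, and 89.6% of its matches in members touched footprints in both replicates.

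Footprints marked some words and hardly others. A match was counted where at least 1 bp of it was in a footprint, so longer words are met more often by position alone. Of 356 CTCF matches in members, 331 met a footprint of replicate 1, 337 one of replicate 2 and 319 one in each, or 89.6%, against 12.3% of positions of that length anywhere in members. NRF1 followed with 23 of 31 matches met by footprints of both replicates (74.2%), CRE with 33 of 61 (54.1%) and SP/KLF with 183 of 401 (45.6%), where 9.94 to 10.5% of positions were so met. TCF/LEF had 18.3% and RUNX 13.3%, against 9.36% of positions, and ETS had 10.9% against 9.94%. For CAGCTG and CAGGTG the values were 9.22% and 10.1%, against 8.77%. GATA (5.54% against 8.77%) and AP-1 (6.43% against 9.36%) lay below their positions.

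Some words favoured one strand of the host gene. Of RUNX matches in members 63.1% (59.8 to 66.4%) read along the sense strand, and of TCF/LEF matches 62.1%. NFY matches did so in 30.8% (25.4 to 36.8%) and GATA matches in 43.3%. CTCF matches were close to even, at 48.3%. Later introns and windows leaned the same way, with 60.8% and 60.4% for RUNX, 59.1% and 57.3% for TCF/LEF, and 43.4% and 47% for GATA. For NFY the shares were 35.9% (30.9 to 41.3%) and 42.6% (37.3 to 48.0%), so its skew was larger in members than in windows. The strand of these words was thus also skewed in later-intron peaks and in the windows, which were not restricted to introns.

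Of the 3 classes, first introns had the least spread of strengths between the animals. Strengths of replicate 1 over replicate 2 were taken as log2 and centred on the median of all 62904 peaks that paired 1 to 1. Among 8038 members that paired so, 784 were over 2-fold higher in replicate 1 (9.75%, where the share over all paired peaks was 11.0%) and 712 were over 2-fold higher in replicate 2 (8.86%, where it was 14.8%). In later introns the shares were 10.7% and 21.3%, and between genes 9.83% and 20.07%. The SD of the centred log2 ratio was 0.74 in first introns, 0.90 in later introns and 0.88 between genes. Across members, Pearson's r of log2 strength between the animals was 0.810 and Spearman's rho 0.803, against 0.702 and 0.694 in later introns. These correlations are across peaks, which are not independent and share 2 libraries.

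Within first introns, peaks with a CTCF match were stronger in replicate 2. Their median centred log2 ratio was -0.96 (SD 0.56, n = 351 peaks), and 47.01% of them were over 2-fold higher in replicate 2, against 7.12% of the 7687 members without a match. None was over 2-fold higher in replicate 1, which allows up to 0.855%, against 10.2% of members without a match. Their median strength was 0.966 in replicate 1 and 1.64 in replicate 2, while members without a match had 0.945 and 0.8004. The same was seen in later introns, with a median of -1.09 over 1543 peaks with a match, and between genes, with -1.06 over 2472. Several other words leaned the other way. The median was 0.45 for members with an NRF1 word (n = 17 peaks), 0.42 with a CRE and 0.31 with an NFY word. It was 0.38 for members with an ETS word, 0.36 with a RUNX word, 0.34 with a TCF/LEF word and 0.34 with a CAGCTG E-box. Over 2-fold higher in replicate 1 were 14.8% of members with an ETS word and 18.1% with a RUNX word, and over 2-fold higher in replicate 2 were 1.88% and 5.24%. Members with an Ikaros word had a median of -0.02, and 7.61% of them were over 2-fold higher in replicate 1 and 10.8% in replicate 2. The median was -0.04 with a match to the loose MEF2 pattern and -0.14 with an NFAT word.

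**Figure D5:**
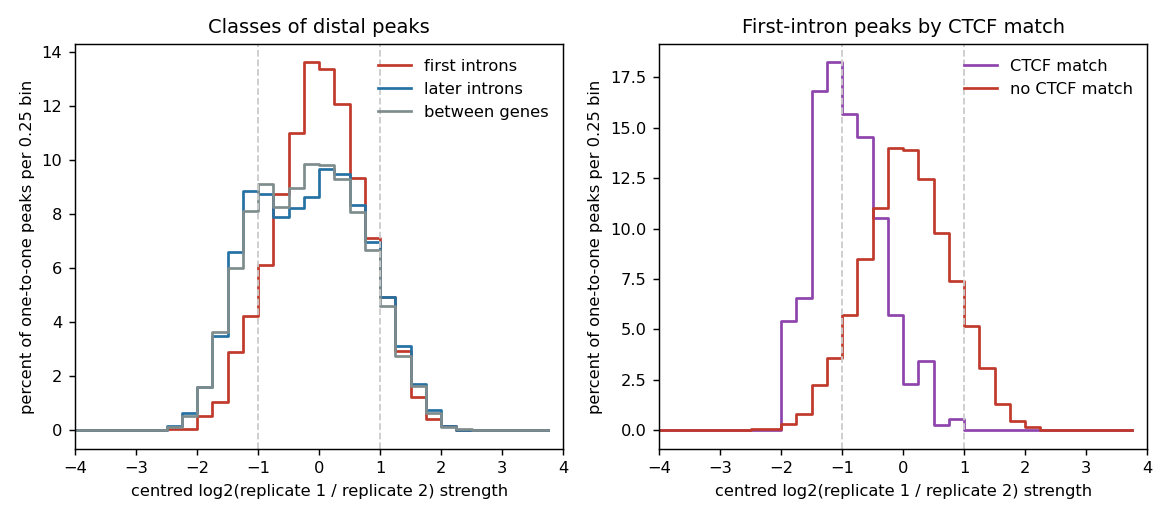
Distribution of the centred log2 ratio of strength, replicate 1 over replicate 2, in bins of 0.25, as percent of peaks that paired 1 to 1. Left, first introns, later introns and the space between genes, and right, members with and without a CTCF match, with dashed lines at 2-fold. Members with a CTCF match had a median of -0.96 and those without one 0.07.

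Peaks over 2 kb from a TSS and without a CTCF match also differed by class. The search needed every letter of the consensus to fit, so CTCF sites that depart from it stayed among these peaks. There, 13.4% of 4842 members were over 2-fold higher in replicate 1 and 8.55% in replicate 2, against 12.3% and 17.5% of 11684 later-intron peaks. CpG-rich members differed little, with 5.12% and 3.35%. Which step or property of the 2 libraries goes with these differences was not tested. The members that differed most were Gpr39 (a receptor gene), with 1.86 in replicate 1 and 0.276 in replicate 2, Lrrc42 with 11.1 and 1.91 and Fam163b with 23.2 and 4.03, and in the other direction Mpp7 with 0.280 and 1.77, Stxbp4 with 0.291 and 1.56 and Anapc16 with 0.789 and 3.73. Of the strongest members in the 32 thymocyte genes, 18 had the higher strength in replicate 1 and 14 in replicate 2, as deposited and without centring. The median log2 ratio of all paired peaks, which centring removes, was 0.25.

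The limit of 500 bp from a TSS cut through a continuous range. The 486 members over 500 and up to 600 bp from a TSS had median strengths of 1.16 in replicate 1 and 1.07 in replicate 2. The 552 first-intron peaks at 400 to 500 bp, which were not members, had 1.13 and 1.16. The nearest members were in Fhl2 and Tnr, just over 500 bp away, with 0.935 and 0.708, and 0.826 and 1.09. The nearest peaks left out were in Tmem259 and Zbtb42 at 500 bp, with 2.64 and 1.40, and 1.00 and 0.904.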

How the data were processed

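Per the authors' file listing, peaks and footprints were made from each sample's own alignments to mm10, without pooling. Not given in the sources used here are the aligner, the callers and how CAST alleles were mapped. Peak signal is the authors' deposited value, on a scale of each sample's own. The deposited footprints were used as positions, a footprint counting where its midpoint lay in the peak. Those of replicate 2 were counted in the strongest replicate 2 peak that the member met. Members that met the same replicate 2 peak therefore share its footprints. The longer peak list of each replicate was used, and the shorter one as a stricter alternative. Python 3.11.15, NumPy 2.4.6 and SciPy 1.17.1 were used, and the selection, density and motif steps were tested on simulated data. The longest transcript was that of the largest summed exon length. Eligible sequence obeyed the same distance and exon rules as the peaks. Wilson and counting intervals are 95%. Genes named were the 10 strongest members and the 10 hosts with most members, the thymocyte genes with a member, and the members that differed most or held most footprints. The members, lists and motifs were chosen with earlier results of these data known. Of the thymocyte list, 1 gene is counted but not reported here by name.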

Additional observations from a re-analysis of the deposited data

How the results depend on the processing

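The density ratio of first to later introns stayed above 1 under every alternative run. It was 1.58 with a reciprocal overlap of 50%, 1.26 over 2000 bp from a TSS, 1.57 without CpG-rich peaks and 1.72 without the members of Gm20388, the last 2 chosen after seeing the data. At equal distance these ratios were 1.13, 1.04, 1.14 and 1.19. For Gm20388 only the peaks were removed, and its 4087455 eligible bp stayed in the first-intron sequence, which lowers both of its ratios. Each replicate's list alone gave 1.81 to 1.86, and 1.26 to 1.30 at equal distance. Members numbered 6062 in the stricter lists, 5698 over 2000 bp from a TSS and 12665 to 15093 in each replicate alone. Their share of distal peaks was 17.6%, 16.6% with the reciprocal overlap, 18.9% with the longest span, 12.8% over 2000 bp, 16.9% without CpG-rich peaks, 17.7% without Gm20388 and 17.97 to 18.4% in each replicate. Footprints per peak were 0.997 times those of later introns over 2000 bp, and 0.854 to 0.938 times in each replicate. The CTCF ratio to windows was 43.3 with windows 5 kb away and 49.2 to 75.4 in each replicate. ETS ratios were 5.77 in the stricter lists, 3.98 from replicate 2 peaks, 6.15 over 2000 bp, 4.16 with windows 5 kb away and 3.61 to 4.73 in each replicate. RUNX ratios were 1.44 from replicate 2 peaks, 1.98 over 2000 bp, 1.86 without CpG-rich peaks and 1.41 to 1.58 in each replicate. Thymocyte genes with a member made up 60.5% in the stricter lists, 62.8% with the reciprocal overlap, 67.4% without CpG-rich peaks, 81.4% with the longest span and 74.4 to 88.4% in each replicate, where the main value was 74.4%. The gap between open and not open promoters was 22.3 percentage points in the stricter lists, 22.5 with the reciprocal overlap and 16.4 over 2000 bp. It was 26.9 without peaks that had over 50% of bases marked as repeats and 24.1 without CpG-rich peaks. In each replicate the gap was 33.0 to 39.4, where the main value was 28.2. The strength difference between first and later introns was -0.07 to 0.07 in each replicate. No paired analysis was possible because the series has 1 group. The read depth is unknown, and the causes of these shifts were not tested.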
